A study of Mus musculus with 9 samples.

Results

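The 39 genes described here are Myc, which encodes a growth-promoting transcription factor, and genes for proteins that build ribosomes. They were listed by symbol, with earlier results of these data known. All 39 were found among the 55487 genes of the count table. They also passed the filter on low counts that left 14851 genes for testing. RNA was taken from the gastrocnemius, a calf muscle, of mice labelled C57BL/6, male and wild-type (C57BL/6J in the study's text), with no age given in the labels. Control (n = 4) mice walked normally in their cages, Unloading (n = 2) mice had their hind legs lifted off the floor for 10 days, and Reloading (n = 3) mice were returned to normal cage activity for 1 day, after 10 days of unloading per the study's methods. The methods describe female mice for this procedure. The labels number the libraries without saying that each came from a separate mouse, so the p-values measure the spread between these libraries, which may be technical. All 3 groups carry the same genotype, and the comparisons share their libraries, since each group enters a pair of them.

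Ribosomes are assembled in the nucleolus, where RNA polymerase I copies the ribosomal RNA genes into a long precursor. Small nucleolar ribonucleoproteins (snoRNPs) guide chemical marks onto that precursor, processing factors cut and fold it, and separate sets of assembly factors then carry the small and the large ribosomal subunit to completion. Myc, paired with Max, binds E-box sequences and is known for raising transcription by RNA polymerase I and the expression of many assembly factors, and ribosome production is a known early part of muscle growth under load.

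The promoters of 32 of the 39 genes were found in a RefSeq table of GRCm38.p6 sequences that run from 250 bases before to 50 bases after each transcript start, 300 bases in all. Bop1, Fbl, Myc, Npm1, Rrp12, Rrs1 and Tcof1 were not matched. The E-box that Myc and Max are known to bind, CACGTG, reads the same on both strands. It lay in the promoters of 7 of the 32 matched genes (21.9%), against 11.7% of the tested genes with a promoter in the table and 8.09% of all genes there. The broader letters CANNTG, which include CACGTG, occurred in 65.6% of the matched members, against 67.8% of the tested genes and 75% of all genes in the table. The 7 genes held 8 copies of CACGTG. Of these 8 copies 5 began after the transcript start, against 361 of 2589 copies (13.9%) over all promoters of the table. The 8 copies are few, and positions were not counted over the tested genes alone. The copies of the 6 genes with the highest log2 fold change of Reloading against Unloading are printed with up to 12 bases on either side, to show where the motif stands in each, with CACGTG in capitals and each sequence 5′ to 3′ on the strand of its gene.
Tsr1, chr11:74898092-74898121, plus strand, 25 bases after the start: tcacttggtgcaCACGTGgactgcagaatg
Nop2, chr6:125131811-125131840, plus strand, 60 bases before the start: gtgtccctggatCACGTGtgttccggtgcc
Ltv1, chr10:13193092-13193121, minus strand, 29 bases after the start: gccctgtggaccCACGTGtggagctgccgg
Utp20, chr10:88826765-88826789, minus strand, 38 bases after the start: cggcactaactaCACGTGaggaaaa
Pes1, chr11:3963965-3963994, plus strand, 3 bases after the start: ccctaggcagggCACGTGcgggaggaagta
Rrn3, chr16:13780472-13780501, plus strand, 215 bases before the start: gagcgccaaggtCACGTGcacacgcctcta
Rrn3, chr16:13780639-13780668, plus strand, 48 bases before the start: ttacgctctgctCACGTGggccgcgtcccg
The remaining gene with the motif, Wdr43, held it 18 bases after the start. A match is a description of the letters and says nothing about whether the factor was bound there.

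The libraries held 9252443 to 19612101 read pairs in genes, and a single read pair was worth 0.051 to 0.108 CPM, the count scaled to 1000000 per library. Mitochondrial genes took 6.49% to 6.75% of the counts in Reloading, against 9.36% to 10.6% in the other groups. The 10 muscle fibre markers summed to 113000 to 173000 CPM over the libraries, so the fibres of the labelled tissue were present. Control 2 and Reloading 1 held skin keratin transcripts, with marker sums of 301 and 138 CPM against at most 4.71 CPM in any other library. The CPM carry TMM factors (trimmed mean of M-values), which set the bulk of genes equal between libraries.

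Reloading was first compared with Unloading, the step from disuse to the return of load. Of the 39 genes, 24 rose at an adjusted p under 0.05 in the quasi-likelihood test of edgeR, or 61.5% of them, against 18.5% of all tested genes. None of the 39 fell at that threshold, against 19.0% of all tested genes, with 1 gene lower at an unadjusted p under 0.05 and 0 lower by DESeq2. The median log2 fold change of the 39 genes was 0.38, against 0.03 over all tested genes. Every Reloading library lay above both Unloading libraries for 29 members (all tested genes 31.0%) and below both for 4 members, Tcof1, Npm1, Dkc1 and Wdr12 (29.0%). Rrp12 with a 2.5-fold, Myc with a 1.98-fold and Tsr1 with a 1.82-fold difference led the list, and the other called members lay between 1.21-fold and 1.67-fold. Without Control 2 and Reloading 1, 19 of the 39 genes were called higher, and the smallest count with a single library left out was 16, without Unloading 2.

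**Figure D1:**
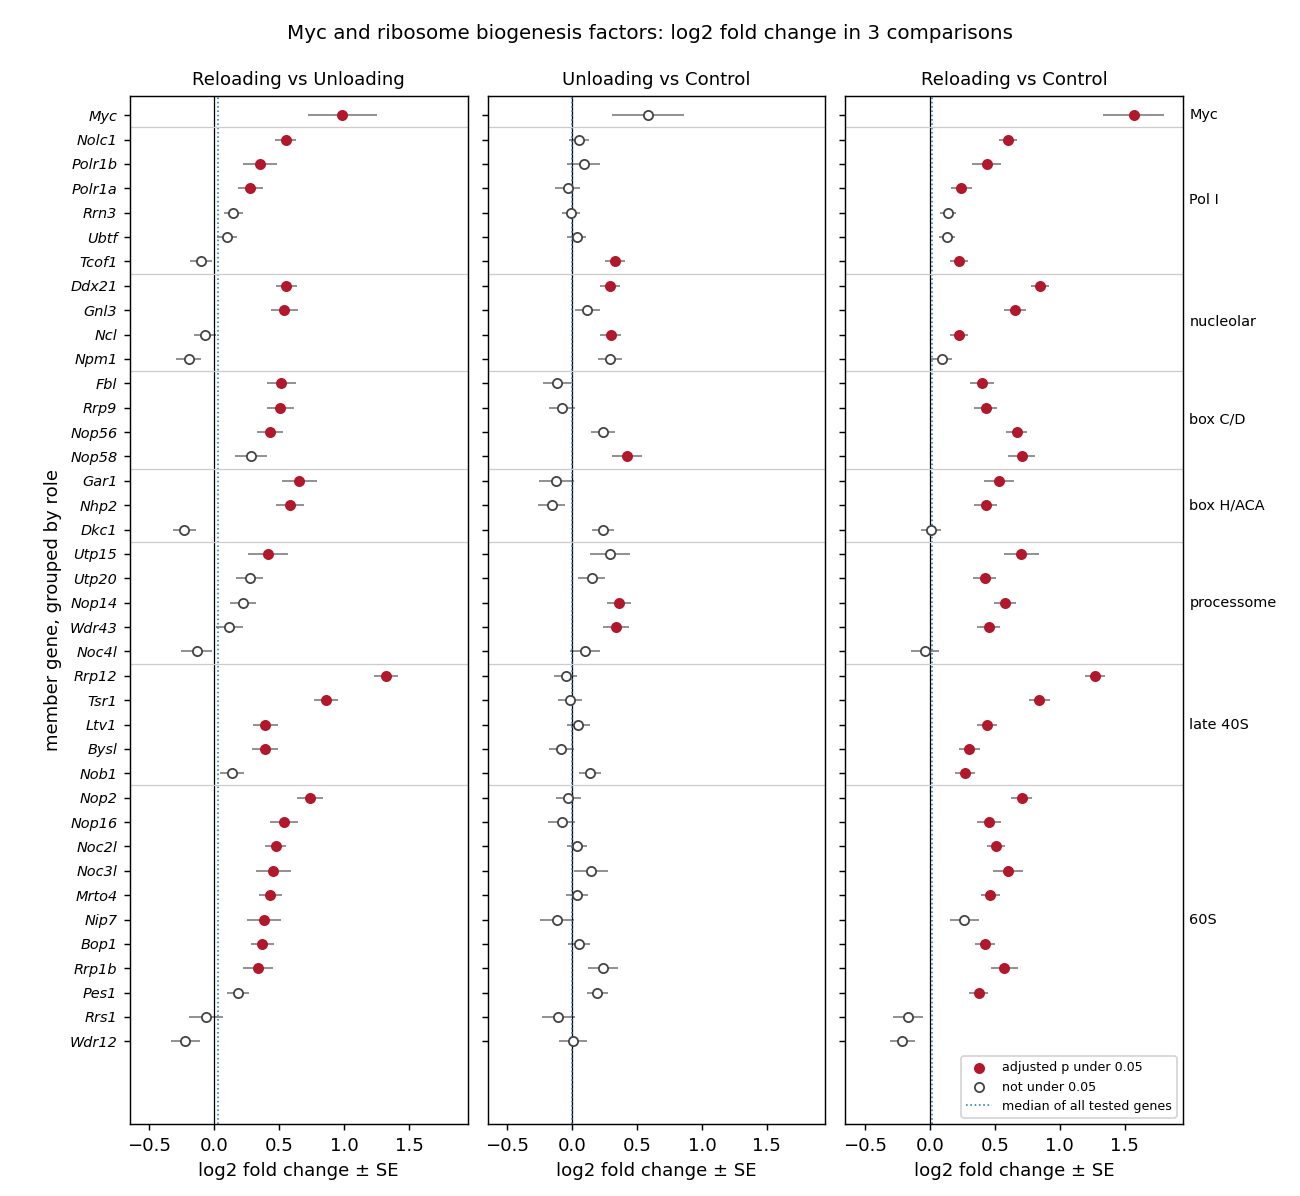
Log2 fold change (x axis) with its standard error for each of the 39 genes (y axis, grouped by role) in the 3 comparisons, from edgeR; filled points have an adjusted p under 0.05 and the dotted line is the median of all tested genes. In Reloading vs Unloading 24 points are filled, all to the right of 0, in Unloading vs Control 6, and in Reloading vs Control 31.

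Myc (ENSMUSG00000022346, chr15:61985391-61990374, plus strand, GRCm38) was a low-level transcript in every library. The Control libraries held 3.5, 7.88, 3.5 and 4.98 CPM, the Unloading libraries 8.61 and 6.5 CPM, and the Reloading libraries 17.8, 16.2 and 10.7 CPM. All 3 Reloading libraries lay above all 6 others, while Control 2 reached between the Unloading libraries. The log2 fold change of Reloading over Unloading was 0.99 (SE 0.268, 95% confidence interval 0.42 to 1.56, adjusted p = 0.0095) and that of Reloading over Control 1.57 (SE 0.236, adjusted p = 8.15e-05). Unloading over Control was 0.58 (SE 0.279), which did not pass the test (adjusted p = 0.205). Without Unloading 2 the Reloading against Unloading difference was 0.78 and missed the threshold (adjusted p = 0.113), as it did in a robust fit of all libraries (0.99, adjusted p = 0.062), and without Control 2 the Unloading against Control difference was 0.90 and passed it (adjusted p = 0.0315). Control 2 and Reloading 1, the libraries with skin transcripts, had the highest Myc of their groups. With both left out, Reloading over Unloading was 0.84 and Unloading over Control 0.90, both past the threshold (adjusted p = 0.0291 for Unloading over Control). The part of skin in the Myc values was not tested.

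Among the 6 genes of RNA polymerase I transcription, 3 rose in Reloading over Unloading. Nolc1, which encodes a nucleolar phosphoprotein that binds polymerase I and snoRNPs, led this group. It lay at 38.3, 35.4, 36.3 and 37.7 CPM in Control, 37.9 and 38.6 CPM in Unloading, and 59.2, 56.1 and 52.8 CPM in Reloading. The Control and Unloading values overlapped and the Reloading values stood above them, with a log2 fold change of 0.55 over Unloading (SE 0.0804, adjusted p = 0.0001). The polymerase subunit genes Polr1b (0.35, adjusted p = 0.0467) and Polr1a (0.28, adjusted p = 0.0393) were close to the threshold. Polr1a lost the call without Control 3, Reloading 1, Reloading 2 or Unloading 2 (0.12 to 0.30), and Polr1b without Reloading 1, Unloading 1 or Unloading 2 (0.24 to 0.40). Rrn3 and Ubtf, which encode initiation factors of the polymerase, had log2 fold changes of 0.14 and 0.10 that did not pass (adjusted p = 0.138 and 0.342). Tcof1, for treacle, another nucleolar partner of the polymerase, had the lowest value of the group, −0.10 (SE 0.0819, adjusted p = 0.344). Tcof1 lay at 37.0, 35.1, 39.7 and 40.3 CPM in Control, 46.6 and 49.1 CPM in Unloading, and 45.3, 44.9 and 43.4 CPM in Reloading, so that both later groups stood above Control. With Control 2 and Reloading 1 left out, 1 of the 6 genes was called.

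The 4 nucleolar scaffold and helicase genes split in pairs. Ddx21, for an RNA helicase that acts in ribosomal RNA transcription and processing, lay at 61.8, 55.5, 59.9 and 65.3 CPM in Control, 75.0 and 73.5 CPM in Unloading and 113, 107 and 108 CPM in Reloading. The 3 groups did not overlap and stood in that order, with a log2 fold change of Reloading over Unloading of 0.56 (SE 0.0802, adjusted p = 9.04e-05). Gnl3, for the GTP-binding protein nucleostemin, rose by 0.54 (SE 0.102, adjusted p = 0.000812). Npm1, for the abundant nucleolar chaperone nucleophosmin, lay at 122, 96.4, 107 and 118 CPM in Control, 144 and 127 CPM in Unloading and 120, 113 and 120 CPM in Reloading. Its Reloading values overlapped Control and stood below Unloading, a difference of −0.20 (SE 0.0968) that did not pass (adjusted p = 0.123). Npm1 has processed copies in the genome that can share its reads, so its count is uncertain. Ncl, for nucleolin, differed by −0.07 (SE 0.0845, adjusted p = 0.537).

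The snoRNP genes encode the proteins that sit on guide RNAs. Of the 4 box C/D genes, whose complex places methyl groups, 3 rose. Fbl encodes the methyltransferase fibrillarin and lay at 16.7, 15.8, 15.6 and 15.7 CPM in Control, 13.9 and 15.4 CPM in Unloading and 23.3, 20.3 and 19.6 CPM in Reloading. Its Unloading libraries were below all Control libraries and its Reloading libraries above them, and Reloading over Unloading was 0.52 (SE 0.109, adjusted p = 0.00181). The U3 snoRNP gene Rrp9 (0.51, adjusted p = 0.00143) and the core protein gene Nop56 (0.43, adjusted p = 0.00314) also rose, though Nop56 fell short without Unloading 2 (0.34, adjusted p = 0.0611). Nop58, the partner of Nop56, lay at 17.7, 14.8, 14.9 and 17.1 CPM in Control, 24.0 and 19.3 CPM in Unloading and 28.4, 24.1 and 26.2 CPM in Reloading. The groups did not overlap, and its 0.28 (SE 0.121) missed the threshold (adjusted p = 0.0782) but passed without Unloading 1 (0.44, adjusted p = 0.0392).

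Of the 3 box H/ACA genes, whose complex turns uridine into pseudouridine, Gar1 and Nhp2 rose and Dkc1 did not. Gar1 lay at 7.44, 7.63, 7.86 and 9.44 CPM in Control, 8.08 and 6.88 CPM in Unloading and 12, 11.5 and 11.7 CPM in Reloading, which was above all other libraries. Its log2 fold change over Unloading was 0.65 (SE 0.136, adjusted p = 0.00159) and that of Nhp2 0.59 (SE 0.107, adjusted p = 0.000638). Dkc1, for the pseudouridine synthase dyskerin, lay at 31.6, 32.7, 31.1 and 32.7 CPM in Control, 40.8 and 35.0 CPM in Unloading and 33.4, 29.6 and 33.6 CPM in Reloading. Reloading overlapped Control and stood below both Unloading libraries, and the difference of −0.23 (SE 0.0914) did not pass (adjusted p = 0.0594). Without Unloading 2 it was −0.35 and passed (adjusted p = 0.03). Dkc1 and these 2 partners thus had values of opposite sign, a split that was not itself tested, and Nop10, the remaining core protein of the complex, had −0.16.

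Of the 5 genes of the small subunit processome, the large particle that first folds the precursor, 1 was called higher. That is 20%, near the 18.5% of all tested genes. The count was 0 by DESeq2 and 2 in edgeR with upper quartile scaling. Utp15 lay at 8.35, 5.89, 7.65 and 8.15 CPM in Control, 9.81 and 8.58 CPM in Unloading and 14.0, 11.6 and 11.1 CPM in Reloading. Its libraries stood apart in that order, and its 0.41 (SE 0.154, adjusted p = 0.0477) lost the call without Control 3, Control 4, Reloading 1, Reloading 2, Unloading 1 or Unloading 2 (0.31 to 0.50). Utp20 (0.27, adjusted p = 0.0566), Nop14 (0.22, adjusted p = 0.0962) and Wdr43 (0.11, adjusted p = 0.416) did not pass, though Utp20 did without Reloading 3 (0.32) and Nop14 without Reloading 2 (0.29). Noc4l lay at 15, 14.5, 13.9 and 12.3 CPM in Control, 13.6 and 16 CPM in Unloading and 12.8, 14.4 and 13.4 CPM in Reloading. All 3 groups of Noc4l overlapped, with −0.14 (SE 0.121, adjusted p = 0.401).

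The late small subunit factors, which act on the pre-40S particle after it leaves the processome, had 4 of 5 genes higher. Rrp12 (ENSMUSG00000035049, chr19:41862851-41896173, minus strand), whose product helps to export and mature that particle, changed most of the 39 genes. It lay at 54.2, 60, 60.1 and 57.1 CPM in Control, 57.8 and 54.4 CPM in Unloading and 156, 139 and 126 CPM in Reloading. Control and Unloading overlapped, and the lowest Reloading library was far above the highest of the others, with a log2 fold change of 1.32 over Unloading (SE 0.0943, adjusted p = 1.42e-07). Tsr1 rose by 0.86 (SE 0.0954, adjusted p = 9.28e-06), from 23.3 to 25.7 CPM over Control and Unloading to 40.1 to 48.3 CPM, but 32.3% of its exon bases are shared with Srr on the other strand, and the counting used no strand. Ltv1 (0.39, adjusted p = 0.00407) and Bysl (0.39, adjusted p = 0.00645) rose less, and Bysl fell short without Unloading 1 (0.29, adjusted p = 0.0929). Nob1, for the nuclease that makes the last cut of the small subunit RNA, lay at 25.4, 23.4, 25.0 and 23.3 CPM in Control, 25.9 and 27.4 CPM in Unloading and 27.1, 30.6 and 30.1 CPM in Reloading. Its Reloading and Unloading values overlapped, and 0.13 (SE 0.0918) did not pass (adjusted p = 0.269).

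Of the 11 large subunit genes, 8 rose. Nop2, which encodes a methyltransferase of the large subunit RNA, lay at 21.9, 20.5, 21.4 and 19.6 CPM in Control, 18.6 and 22 CPM in Unloading and 34.9, 32.8 and 34.4 CPM in Reloading. Control and Unloading overlapped below all Reloading libraries, and the log2 fold change over Unloading was 0.74 (SE 0.0983, adjusted p = 4.59e-05). Nop16 (0.54), Noc2l (0.47), Noc3l (0.45), Mrto4 (0.43), Nip7 (0.38), Bop1 (0.37) and Rrp1b (0.34) also rose, with adjusted p from 0.000391 for Noc2l to 0.0358 for Rrp1b. Some of these calls were lost when a single library was left out. Bop1 lost its call without Unloading 1 (0.30), and Noc3l without Unloading 1 or Unloading 2 (0.41 to 0.49). Nip7 lost it without Reloading 1, Reloading 2, Unloading 1 or Unloading 2 (0.33 to 0.43). Rrp1b lost it without Reloading 1, Reloading 2, Reloading 3, Unloading 1 or Unloading 2 (0.28 to 0.38). For Noc3l, Nip7 and Rrp1b these values lay on both sides of those of the full fit. Noc2l shares 14.4% of its exon bases with Samd11. Pes1, Bop1 and Wdr12 encode the 3 partners of the PeBoW complex, and differences between them were not tested. Bop1 rose, Pes1 had 0.18 (SE 0.0854, adjusted p = 0.108) and passed without Reloading 2 (0.25, adjusted p = 0.0428), and Wdr12 had −0.22 (SE 0.113, adjusted p = 0.136). Wdr12 lay at 28.1, 25.9, 24.3 and 30.6 CPM in Control, 27.5 and 27.2 CPM in Unloading and 20.6, 24.0 and 25.5 CPM in Reloading, below both Unloading libraries and overlapping Control. Rrs1, for a factor that brings in the 5S particle, had −0.06 (SE 0.132, adjusted p = 0.734).

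**Figure D2:**
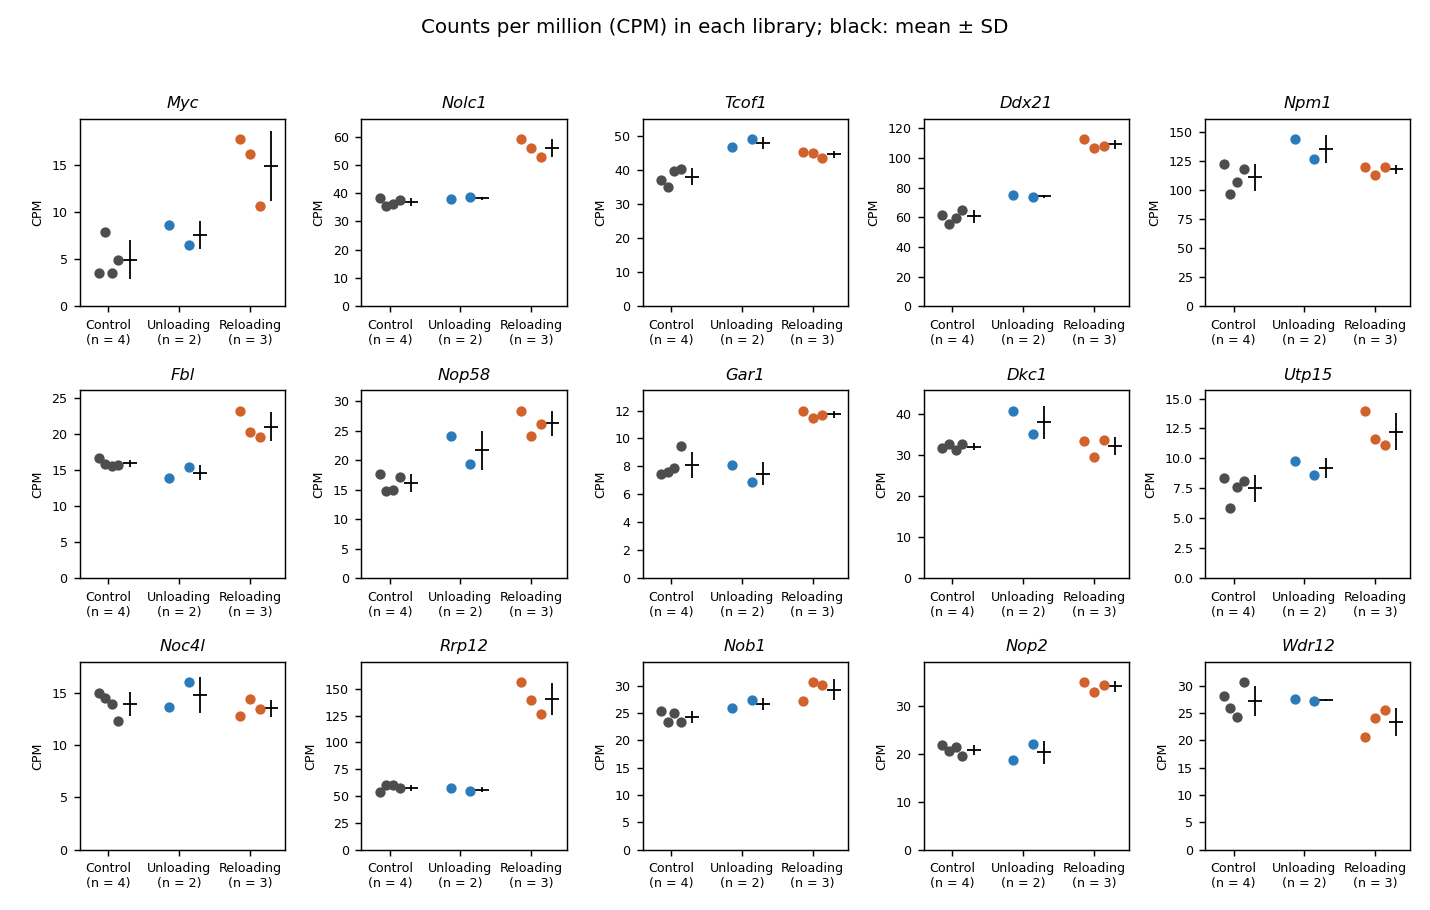
CPM in each library (points, y axis from 0) for Myc and for the member with the highest and the lowest Reloading vs Unloading log2 fold change in each role group, with mean and SD in black for Control (n = 4), Unloading (n = 2) and Reloading (n = 3). Rrp12, Nop2 and Gar1 show Control and Unloading together and Reloading above, Ddx21 shows 3 steps, and Npm1 and Dkc1 are highest in Unloading.

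Unloading was then compared with Control, the step from normal use to disuse. Of the 39 genes 6 rose (15.4%), against 4.40% of all tested genes. None fell in edgeR's test, against 5.50% of all tested genes, with 0 lower at an unadjusted p under 0.05 and 0 lower by DESeq2. Both Unloading libraries lay above all Control libraries for 13 members (all tested genes 16.4%) and below them for 1, Fbl (16.6%). The median log2 fold change was 0.05, against 0.00 over all tested genes. The 6 genes were Tcof1, Ncl, Ddx21, Nop58, Nop14 and Wdr43, and with single libraries left out the count was 0 without Unloading 1, 1 without Control 3, and 2 without Control 2 or without Unloading 2. It was 3 without Control 2 and Reloading 1.

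Those 6 genes encode polymerase I and nucleolar proteins, a box C/D protein and 2 processome proteins. Nop58 had the highest difference, 0.42 (SE 0.118, adjusted p = 0.034), followed by Nop14 with 0.36 (SE 0.096, adjusted p = 0.028) and Wdr43 with 0.34 (SE 0.0998, adjusted p = 0.0442). Nop14 lay at 25.1, 23.6, 23.8 and 24.5 CPM in Control, 32.5 and 29.9 CPM in Unloading and 40.9, 32.5 and 35.5 CPM in Reloading. Its Control libraries were closely grouped, and Reloading began where Unloading ended. Wdr43 lay at 39.5, 33.5, 31.7 and 32.7 CPM in Control, 45.7 and 41.0 CPM in Unloading and 48.7, 49.8 and 42.0 CPM in Reloading, and Control 1 came close to Unloading 2. Ncl lay at 260, 226, 227 and 258 CPM in Control, 314 and 283 CPM in Unloading and 294, 275 and 283 CPM in Reloading, which left Control below all 5 other libraries. Ncl differed by 0.30 (SE 0.0797, adjusted p = 0.0294), Ddx21 by 0.29 (SE 0.076, adjusted p = 0.0249) and Tcof1 by 0.33 (SE 0.0782, adjusted p = 0.0165). Npm1 had 0.29 (SE 0.0917) and missed the threshold (adjusted p = 0.0602). It passed in 6 of the 20 alternatives, among them without Control 1 (0.34, adjusted p = 0.036) and by DESeq2 (adjusted p = 0.0266). Rrp12 (−0.05), Tsr1 (−0.02) and Nop2 (−0.03) had values near 0, with 95% confidence intervals of −0.24 to 0.14, −0.21 to 0.18 and −0.23 to 0.17.

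Reloading was last compared with Control, muscle after disuse and a day of load against muscle that was never unloaded. Of the 39 genes 31 rose (79.5%), against 22.1% of all tested genes, and the median log2 fold change was 0.44, against 0.01. None fell in edgeR's test, against 21.3% of all tested genes, with 1 lower at an unadjusted p under 0.05 and 0 lower by DESeq2. All Reloading libraries lay above all Control libraries for 34 members (all tested genes 24.2%) and below them for 0 (22.7%). Without Control 2 and Reloading 1 the count of higher genes was 26. By role, 4 of 6 polymerase I genes rose, 3 of 4 scaffold and helicase genes, 4 of 4 box C/D genes, 2 of 3 box H/ACA genes, 4 of 5 processome genes, 5 of 5 late small subunit genes, 8 of 11 large subunit genes, and Myc. The genes that did not pass were Rrn3, Ubtf, Npm1, Dkc1, Noc4l, Wdr12, Rrs1 and Nip7.

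For the genes above, the 3 comparisons can be set side by side. Ddx21 had 0.29 in Unloading over Control, 0.56 in Reloading over Unloading and 0.85 (SE 0.0669, adjusted p = 1.76e-07) in Reloading over Control. Nop58 had 0.42, 0.28 and 0.71 (SE 0.104, adjusted p = 6.87e-05), and Nop14 0.36, 0.22 and 0.58 (SE 0.0853, adjusted p = 6.64e-05). Rrp12 instead had −0.05, 1.32 and 1.27 (SE 0.0761, adjusted p = 1.08e-08), and Nop2 −0.03, 0.74 and 0.71 (SE 0.0821, adjusted p = 7.38e-06). Ddx21, Nop58 and Nop14 had values above 0 in both steps. The step to Reloading did not pass edgeR's test for Nop58 (adjusted p = 0.0782) or Nop14 (adjusted p = 0.0962). For Rrp12 and Nop2 the difference from Control lay in the step to Reloading. These genes were named for their values in the same comparisons, so the contrast between them is no support. Dkc1 had 0.24, −0.23 and 0.01, and Npm1 0.29, −0.20 and 0.09, so that both stood near Control in Reloading. The comparisons share libraries, and whether the steps differ between genes was not tested. Some calls over Control were lost when a single library was left out. Polr1a lost its call without Control 2, Control 3, Control 4 or Reloading 1 (0.17 to 0.24). Tcof1 lost it without Control 2, Reloading 1 or Reloading 2 (0.18 to 0.22). Ncl lost it without Control 2, Control 3 or Reloading 1 (0.19 to 0.20), and Nob1 without Reloading 2 (0.24). Nip7 passed without Control 2 (0.31, adjusted p = 0.0463), and Wdr12 was called lower without Control 3 (−0.27, adjusted p = 0.0439).

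**Figure D3:**
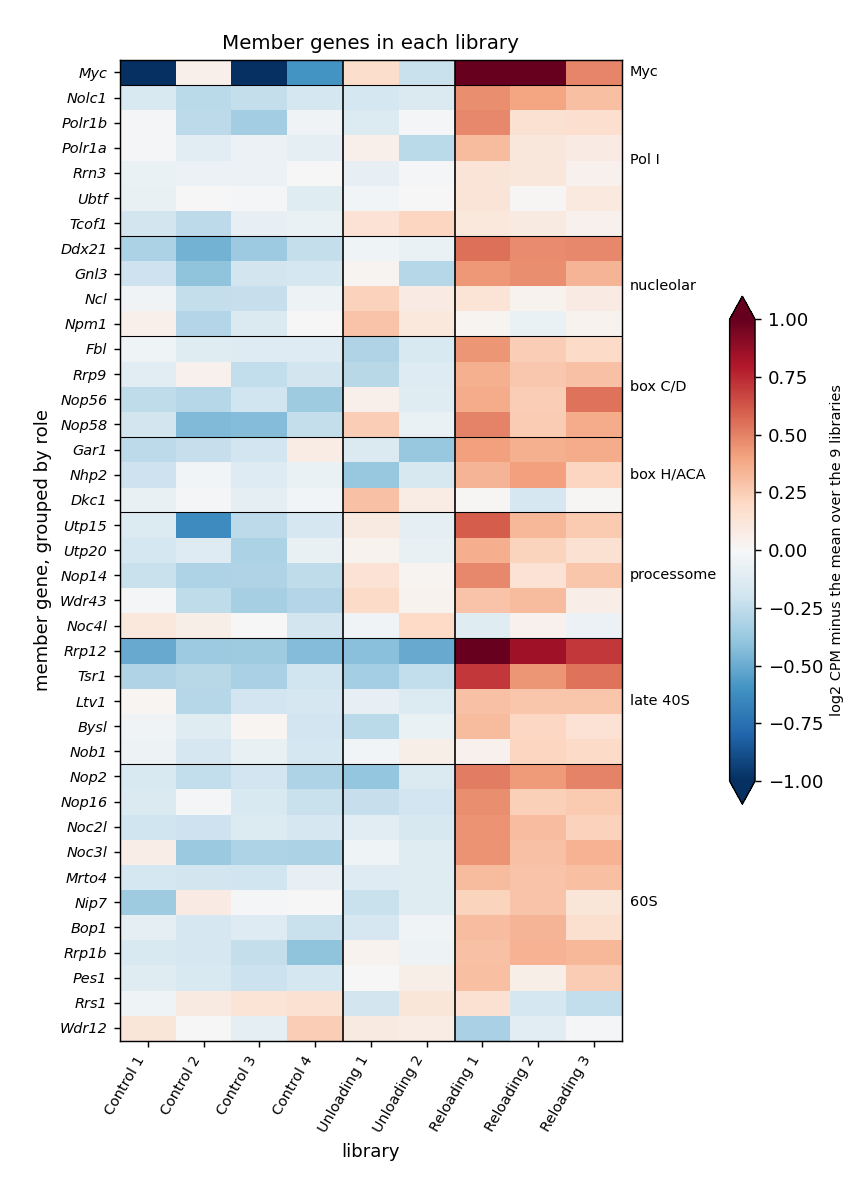
Log2 CPM of each of the 39 genes (rows, by role) in each of the 9 libraries (columns), minus the gene's mean over the libraries; red is above and blue below that mean, with the colour scale ending at 1 in either direction. The 3 Reloading columns are red for most rows, and Noc4l, Rrs1, Wdr12, Dkc1 and Npm1 stand out from that pattern.

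Levels between genes were compared per kilobase of exon. The length is the sum of all annotated exon bases of a gene, which can exceed that of its RNA, so the order depends on the annotation. In Control, Npm1 was the most abundant of the 39 genes with 41.5 CPM per kb, followed by Ncl with 23.8 and Nhp2 with 16.9, and Rrp1b was the least with 1.09. Myc held 1.83 CPM per kb in Control, 2.78 in Unloading and 5.49 in Reloading, which put it at place 35 of 39 in Control. Rrp12 went from 13.3 CPM per kb in Control and 12.9 in Unloading to 32.3 in Reloading, against 27.9 for Ncl. Before division by lengths of 4340 and 10188 bases, Rrp12 had 140 CPM and Ncl 284 CPM in Reloading, so that order rests on the lengths. The genes with the highest levels per kilobase, Npm1 and Ncl, were thus among those that did not rise from Unloading to Reloading, while Rrp12 and Nhp2, the next in order, did.

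Other genes of the same pathway were counted from fixed lists in the same fit. Of all tested genes 18.5% rose and 19.0% fell in Reloading over Unloading. Of 47 further large subunit factors 17 rose (36.2%) and 3 fell (6.38%), and of 41 further small subunit factors 12 rose (29.3%) and 3 fell (7.32%). Nle1, for an assembly factor of the large subunit, rose by 0.87 (adjusted p = 0.000269), Mak16 by 0.80 (adjusted p = 0.00235) and the helicase gene Ddx56 by 0.67 (adjusted p = 0.000637), while Tex10 (−0.55), Nsa2 (−0.43) and Cebpz (−0.31) fell. In the small subunit list Utp18 (0.81), Pwp2 (0.79) and Dhx37 (0.63) rose, and Riok3 (−0.61), Imp3 (−0.45) and Ddx52 (−0.32) fell. These lists had medians of 0.20 and 0.16, below the 0.38 of the 39 genes and above the 0.03 of all tested genes. The members and the lists were chosen with earlier results of these data known, so this order is no independent support. Of 10 further polymerase I genes 4 rose (40%), with Polr1e (0.66), Polr1c (0.55) and Taf1b (0.52) foremost, and 1 fell (10%), Polr1f (−0.45). Of 10 further snoRNP genes Ruvbl2 (0.54) and Nufip1 (0.38) rose, or 20%, near the 18.5% of all tested genes, and DESeq2 called 1. Without Control 2 and Reloading 1 the large subunit list had 11 higher and 3 lower, the small subunit list 10 and 2, and the polymerase I list 2 and 1.

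The RNA exosome, which trims ribosomal RNA ends, had 3 of 13 genes higher (23.1%), Exosc2 (0.40), Dis3 (0.38) and Exosc1 (0.36), and 1 lower (7.69%), C1d (−0.48), where all tested genes had 18.5% and 19.0%. DESeq2 called 0 exosome genes higher, edgeR 5 at an unadjusted p under 0.05, and without Control 2 and Reloading 1 edgeR called 1 higher and 1 lower. Of 19 genes for RNA polymerase III and its transcription factors, 2 rose (10.5%), Polr3d (0.84) and Polr3b (0.44). In the same list 3 fell (15.8%), Polr3f (−0.46), Polr3k (−0.37) and Gtf3c6 (−0.34). With library totals alone as the scale, which moved the median of all tested genes to 0.27, this list had 6 higher and 0 lower with a median of 0.19, and the large subunit list above had 34 higher and 0 lower and the small subunit list 26 and 1. The cytosolic ribosomal protein genes, which encode the building blocks that the members assemble, went the other way in this comparison. Of 79 genes 25 fell (31.6%), among them Rps14 (−0.62, adjusted p = 9.84e-06) and Rpl23a (−0.51), and 1 rose. The gene that rose was Rpl3, at 37.9, 42.9, 41.3 and 37.6 CPM in Control, 43.5 and 45.4 CPM in Unloading and 127, 122 and 120 CPM in Reloading, a log2 fold change of 1.47 over Unloading (SE 0.0832, adjusted p = 1.3e-08). The median of the ribosomal protein list was −0.14 by TMM, and with library totals alone as the scale it was 0.11, with 15 higher and 3 lower, where the median of all tested genes was 0.27. Its direction thus depends on the scale, while its place below the median of all genes held in each scaling run. Without Control 2 and Reloading 1, 15 of the 79 genes fell. By TMM, 6 rose in Unloading over Control (7.59%, all tested genes 4.40%) and 0 fell, with a median of 0.08. In Reloading over Control 6 rose (7.59%, all tested genes 22.1%) and 17 fell (21.5%, all tested genes 21.3%), with a median of −0.07. With library totals alone that median was 0.17.

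**Figure D4:**
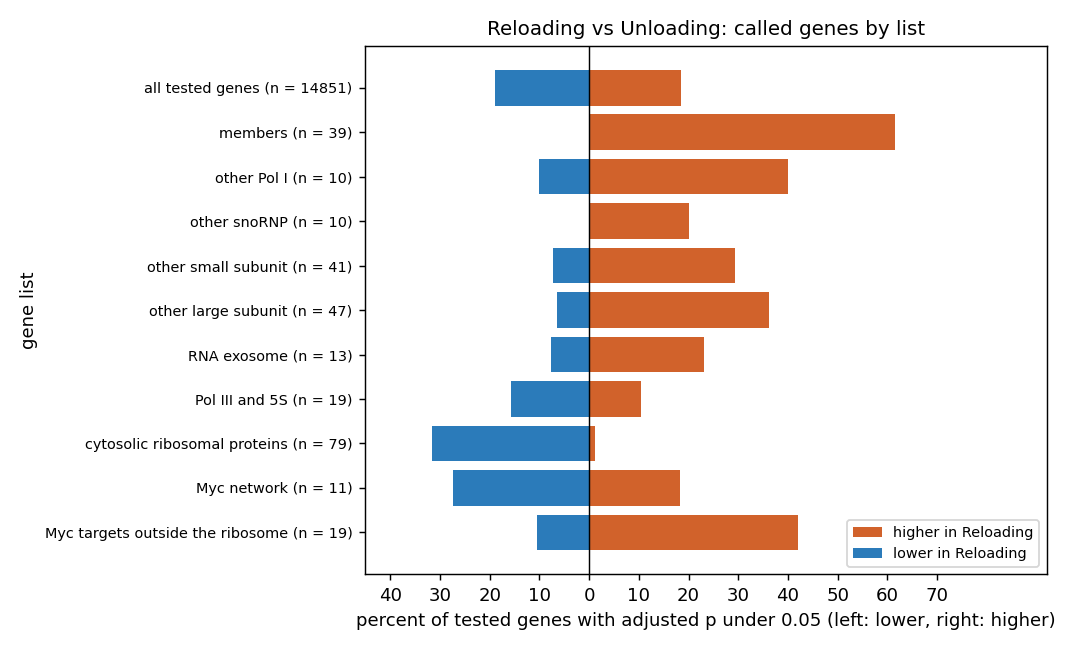
Percent of tested genes called higher (right) and lower (left) in Reloading vs Unloading at an adjusted p under 0.05 in edgeR, for all tested genes, the 39 members and the fixed pathway lists (y axis, n tested in brackets), by TMM scaling. The members have the longest bar to the right, 61.5%, and the cytosolic ribosomal proteins the longest to the left, 31.6%.

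Genes around Myc were counted likewise. Of 11 tested genes of its network of partners and antagonists 2 were called higher (18.2%) and 3 lower (27.3%). These shares are not far from the 18.5% and 19.0% of all tested genes, and the median of the list was 0.02. The higher genes were Mlxipl (0.77), which encodes a glucose-responsive factor, and the paralog Mycn (1.79, adjusted p = 0.0484). Mycn lay at 0 and 0.437 CPM in Unloading and 1.29, 0.94 and 0.464 CPM in Reloading, and it passed the low-count filter through Reloading alone, so its call is no support. Without Control 2 and Reloading 1, 10 genes of this network were tested, with 1 higher and 2 lower. The 3 lower genes in the fit of all libraries were the Max-binding antagonist genes Mga (−0.73, adjusted p = 8.06e-05), Mxi1 (−0.59, adjusted p = 0.000185) and Mxd1 (−0.46, adjusted p = 0.036). The list holds further antagonist genes, Mnt, Mxd3 and Mxd4, which were not among those called. Of the 11 tested genes of the network, 7 had a log2 fold change above 0. Of 19 genes known as Myc targets outside the ribosome, 8 rose (42.1%) and 2 fell (10.5%). Srm, for spermidine synthase, lay at 7.72 to 8.15 CPM in Control, 6.74 and 7.81 CPM in Unloading and 20.1, 18.3 and 16 CPM in Reloading, which is 1.31 over Unloading on the log2 scale (SE 0.131, adjusted p = 3.64e-06). The mitochondrial chaperonin gene Hspe1 rose by 1.15 and the cyclin gene Ccnd2 by 1.04, and Eif5a (−0.25) and Ldha (−0.23) fell. Of the members with a promoter in the RefSeq table, 3 of the 7 with CACGTG rose and 17 of the 25 without it, with median log2 fold changes of 0.27 and 0.39.

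Whole muscle holds several cell types, and in such bulk RNA a change in the number of cells of a type and a change in RNA per cell cannot be told apart. The markers of some other cell types moved with Reloading. Beside the counts of called markers stand the shares of all tested genes over Unloading, 18.5% higher and 19.0% lower. The 16 macrophage markers summed to 101 to 121 CPM in Control, 103 to 104 CPM in Unloading and 194 to 221 CPM in Reloading, and 12 of the 16 rose over Unloading. The 10 endothelial markers summed to 211 to 243, 210 to 212 and 343 to 430 CPM, with 8 of 10 higher. The 10 proliferation genes summed to 38.2 to 44, 37.3 to 37.4 and 53.2 to 62.8 CPM, with 6 of the 7 tested higher, and Birc5 had no counts in Unloading. DESeq2 called 4 of them higher. Without Control 2 and Reloading 1, 5 were tested and 3 were higher, so part of the count depends on which genes pass the low-count filter. The fibro-adipogenic markers summed to 526 to 749, 618 to 621 and 695 to 863 CPM, with 3 of 8 higher and 2 lower, and the satellite cell markers to 59 to 73.8, 62.1 to 67.9 and 76.2 to 84.8 CPM, with 3 of the 7 tested higher and 1 lower. The neutrophil markers stayed at or under 8.22 CPM in every library, and Ly6g and Cxcr2 had no counts in Unloading. The muscle fibre markers were lower in Reloading, at 113000 to 127000 CPM against 163000 to 169000 CPM in Unloading, with 7 of 10 lower. The part of these cell types in the values of the 39 genes was not tested.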

How the data were processed

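Polyadenylated RNA of 9 gastrocnemius libraries was sequenced. Per the labels and the file headers, the authors aligned reads with STAR 2.7.3a to GRCm38.p6 and counted read pairs per gene, without strand, with featureCounts 2.0.3, and the deposited table holds raw counts and summed exon lengths. The study's methods describe single reads, whereas the labels and the table give pairs. The authors' DESeq2 tables (fold changes, p-values, mean signal) were used for gene symbols alone. Reads that fit several genes are left out by the counter's defaults, which can lower genes with copies or overlaps. 17 members share exon bases with another gene.

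The counts were tested with edgeR 4.0.16 (R 4.3.3), after filterByExpr (minimum count 10, minimum total 15), with TMM scaling and a quasi-likelihood fit of all 9 libraries with group as the only term. P-values, two-sided, were adjusted by Benjamini and Hochberg over 14851 genes. Standard errors came from the F statistic and log2 CPM used a prior count of 2. The lowest member count in a library was 31. The fit was tested on simulated data. Alternatives were DESeq2 1.42.0, other scalings, no filter, a robust fit, 2-group fits, replicate blocks and leaving out libraries. Of 254 pathway symbols 1 was not matched.

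The members, the lists and the tests were chosen with earlier results of these data known. Values in every library are given for Myc, for the member with the highest and the lowest Reloading over Unloading value in each role group and for the genes called in Unloading over Control; of each list, up to 3 called genes per direction are named, except 1 that is not reported here. Srr and Samd11 are named as neighbours.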

Additional observations from a re-analysis of the deposited data

Results flagged for a closer look

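In the 4 Control libraries 47 sets of values were checked for a library far from the others (Dixon's test at 95%), and 4 stood out, where chance gives about 1 in 20 sets. Gnl3 was lowest in Control 2 at 27.9 CPM, where the rest of the group lay between 32 and 32.7 CPM. Fbl was highest in Control 1 at 16.7 CPM (15.6 to 15.8 CPM elsewhere in the group), and so was Noc3l at 12.2 CPM (8.95 to 9.36 CPM elsewhere). The skin marker sum reached 301 CPM in Control 2 and 3.14 to 4.71 CPM elsewhere in the group. Groups of 2 or 3 libraries were not checked.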

How the results depend on the processing

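Over 20 alternatives, 14 of the 24 members called in Reloading over Unloading, 0 of the 6 in Unloading over Control and 25 of the 31 in Reloading over Control were called each time, and no called value changed sign. With library totals alone as the scale the members' median was 0.632 (Reloading over Unloading) and 0.68 (Reloading over Control), where the median of all genes moved to 0.274 and 0.252, and 82.8% and 80.2% of all calls were higher, against 49.3% and 50.9% by TMM. Relative to the median of all genes, the members' Reloading over Unloading median stayed at 0.335 to 0.39 over these alternatives. With DESeq2 size factors in edgeR, 1 member, Dkc1, was called lower in Reloading over Unloading. With single libraries left out, the members called lower ranged from 0 to 1 in Reloading over Unloading and from 0 to 1 in Reloading over Control (Wdr12 without Control 3), those called in Unloading over Control from 0 to 7, and the medians from 0.0514 to 0.104 in Unloading over Control and from 0.408 to 0.479 in Reloading over Control. Leaving out an Unloading library leaves 1, which is then assumed to vary like the other groups. Without Control 2 and Reloading 1 together, 3 members were called in Unloading over Control. DESeq2 called 18, 7 and 29 members higher. The samples share only replicate numbers. For the title numbers, the deviations of same-numbered libraries correlated by −0.201 to 0.0752. For the numbers of the descriptions they correlated by 0.0172 to 0.361, with 3 of these 6 pairs over 0.1. The 0.361 was between Control 2 and Reloading 1, the libraries with skin transcripts. The part of skin in that value was not tested. With the title numbers as a replicate block 25, 5 and 31 members were called higher, and with the description numbers 26, 4 and 31. Unloading has 2 libraries, which limits what its comparisons can show.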
